A study of Colocasia esculenta with 9 samples.

Results

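TARO_scaffold_000154 is an assembled stretch of the taro genome that carries 48 of the 57034 gene models counted in a leaf RNA-seq series. All gene models that the count files place on this scaffold were taken, in order of their start. The scaffold itself was singled out because an earlier analysis of these same data called many of its gene models as differing among the cultivars. They lie between bases 2458 and 782570 of the scaffold (counted from 1, as in the files; the sources used here do not name the genome build), 19 on the plus strand and 29 on the minus strand. Taro (Colocasia esculenta) is an aroid crop that is propagated vegetatively, so plants of a cultivar are usually clones. The libraries came from 3 cultivars, Sam-07 (also called Samasama, replicates 1, 2 and 3), Palau 10 (also called Ngerruuch, replicates 1, 2 and 3) and Niue (replicates 2, 3 and 4), with 3 libraries each. All plants were 8 months old, vegetative, raised from tissue culture and kept in a growth chamber at 27 °C, and the labels name no treatment. Humidity was 85% and the photoperiod 12 h, and a drying time of 40 h is recorded for every sample. Nothing in the labels tells whether the replicates were separate plants. The p-values therefore set differences between cultivars only against the spread among these libraries, which may be technical.

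Neighbouring genes of a plant chromosome can arise from tandem duplication, can share open or closed chromatin, and can be gained or lost together in some cultivars of a crop. A gene model is a predicted gene, and some predicted genes are never seen as RNA in a given organ. The files give no names or products, so members appear here by identifier and position. No function can be stated for any of them, and the leaf identity of the samples could not be checked against marker genes. No sequence of the scaffold was used here. In bulk leaf RNA, fewer cells of a type and less RNA per cell cannot be told apart.

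The libraries held 5468567 to 18175384 fragments (read pairs) assigned to gene models, of which 7613 to 39536 lay on the scaffold. Levels are in CPM, the fragments of a gene model per 1000000 fragments of the library, scaled with TMM factors, which correct for differences in RNA composition. Where all 3 libraries of a cultivar are at 0, the upper limit was taken as 3 fragments over the cultivar, which is 0.0770 CPM in Sam-07, 0.0650 CPM in Palau 10 and 0.114 CPM in Niue. These limits cover counting error only. Over all gene models, Palau 10 replicate 3 and Sam-07 replicate 2 stood farthest from the other libraries of their cultivar, at mean distances of 157 and 130 on the log2(CPM + 1) scale, against 85.0 to 115 for the other 7 libraries. Where a call or the sign of a median rests on them, the value without them is also given. By the same distance, libraries did not group fully by cultivar. Palau 10 replicate 3 lay nearest to Sam-07 replicate 3, Sam-07 replicate 2 to Niue replicate 3, and Niue replicate 2 to Palau 10 replicate 2. Each of the remaining libraries lay nearest to a library of its own cultivar.

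Most of the gene models were detected in the leaf of all 3 cultivars. At 1 CPM or more in each of the 9 libraries were 27 of the 48 gene models (56.2%), against 26.2% of all gene models. A further 9 reached 1 CPM in some libraries, 5 had fragments but stayed under 1 CPM in every library, and 7 (14.6%, against 51.3% of all gene models) had no fragment at all. Only gene models with enough fragments can be called, and the scaffold was chosen for its calls. These shares may therefore follow in part from that choice, which was not tested. The 7 without a fragment were Taro_005436, Taro_005438, Taro_005446, Taro_005450, Taro_005462, Taro_005463 and Taro_005475. The median summed exon length was 865 bp over all gene models and 1815 bp for the 27 expressed in all libraries. Among the 7 without a fragment the length ranged from 394 to 1461 bp with a median of 726 bp. They were scattered along the scaffold, and Taro_005462 and Taro_005463 were the only 2 next to each other. The plot of levels in scaffold order shows these gaps.

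**Figure D1:**
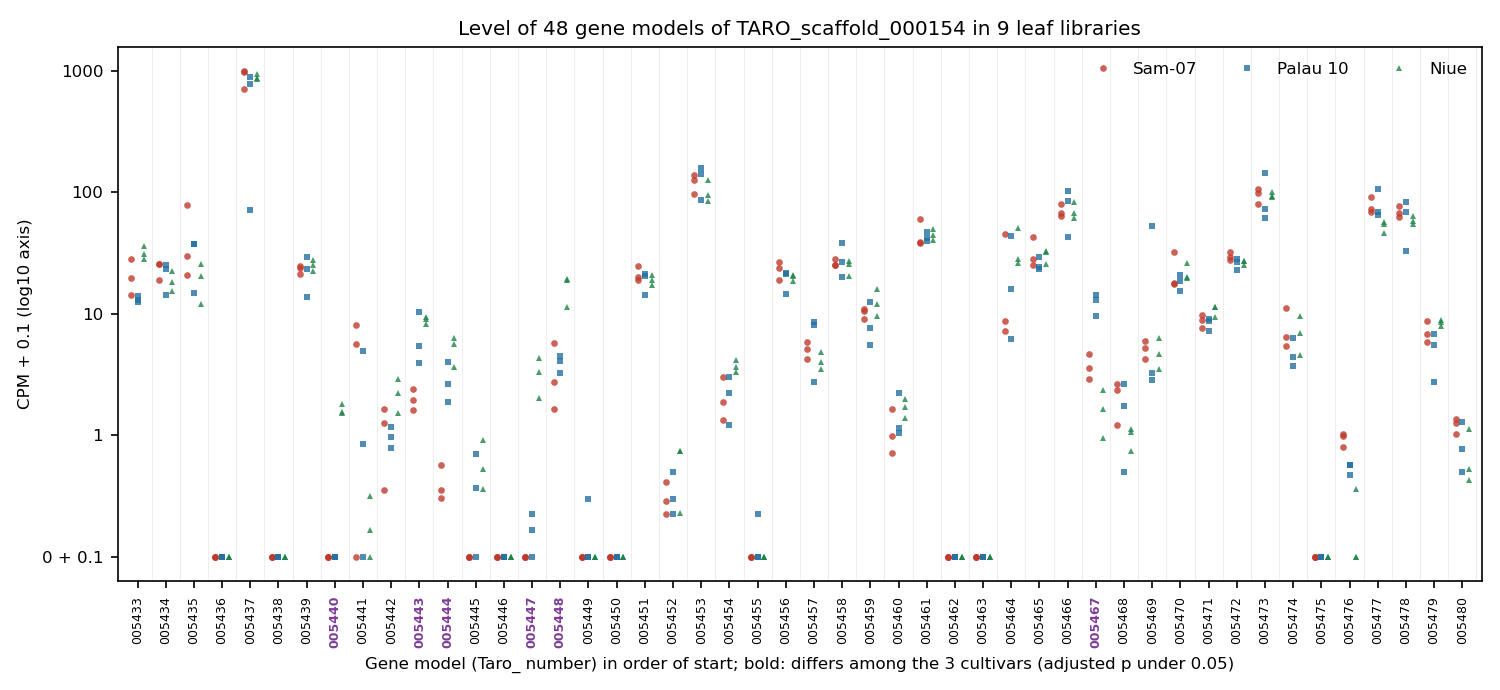
Levels of the 48 gene models in order of start, 1 point per library, on a log10 axis of CPM + 0.1; red circles are Sam-07, blue squares Palau 10 and green triangles Niue. Points on the lowest line have no fragment, 27 gene models reach 1 CPM in each of the 9 libraries, and 5 of the 6 gene models in bold lie close together, where the green points are mostly the highest.

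One gene model, Taro_005437 (50797 to 52591, minus strand, 5 exons), held 47.2% to 54.0% of the scaffold's fragments in 8 libraries and 8.53% in Palau 10 replicate 3. It averaged 986 CPM per kilobase of exon over the 9 libraries, and the next 4 gene models by mean CPM were far below it per kilobase, Taro_005453 at 86.9, Taro_005466 at 50.7, Taro_005477 at 48.9 and Taro_005473 at 46.7. Taro_005437 had 714, 979 and 995 CPM in Sam-07 replicates 1, 2 and 3. It had 897, 784 and 71.2 CPM in Palau 10 replicates 1, 2 and 3, and 937, 878 and 863 CPM in Niue replicates 2, 3 and 4. A single library, Palau 10 replicate 3, was low, and the other 8 overlapped between cultivars. The gene model did not pass the test of a difference among the cultivars (edgeR's quasi-likelihood test, adjusted p = 0.88, and 0.96 without Palau 10 replicate 3). The scaffold summed to 836 CPM in Palau 10 replicate 3 and to 1486 to 1850 CPM in the other libraries. Without Taro_005437, the remaining 47 gene models summed to between 764 and 878 CPM in all 9 libraries.

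The other 4 of the 5 most abundant gene models did not pass the test either. Taro_005453 (243737 to 248822, minus strand, 4 exons) averaged 121 ± 21.4 CPM in Sam-07, 129 ± 37.9 CPM in Palau 10 and 102 ± 22.0 CPM in Niue (SD, n = 3 each). Taro_005473 (604994 to 625089, plus strand, 12 exons) averaged 95.05 ± 13.6 CPM in Sam-07, 93.2 ± 45.6 CPM in Palau 10 and 95.3 ± 4.48 CPM in Niue. In both, the libraries of the 3 cultivars overlapped. Taro_005466 (466115 to 472075, minus strand, 4 exons) averaged 70.6 ± 8.27 CPM in Sam-07, 77.0 ± 30.7 CPM in Palau 10 and 70.8 ± 11.4 CPM in Niue. Taro_005477 (661263 to 666378, minus strand, 2 exons) had 68.7, 91.8 and 72.9 CPM in Sam-07, 64.6, 106 and 68.5 CPM in Palau 10, and 56.7, 54.7 and 46.2 CPM in Niue. For Taro_005466 the cultivars overlapped, while for Taro_005477 all Niue libraries lay below all others. With edgeR the adjusted p was 0.83 for Taro_005453, 0.999 for Taro_005473, 0.97 for Taro_005466 and 0.46 for Taro_005477, which does not show that their levels were equal. The SD was largest in Palau 10 for each of the 4. In Palau 10 replicate 3, Taro_005453 and Taro_005466 were the lowest and Taro_005473 the highest of the cultivar.

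The first comparison asked which gene models of the scaffold differed among the 3 cultivars. It was fitted over all gene models, of which 18865 had enough fragments to be tested, 37 of them on the scaffold. The test called 6 of these 37 (edgeR's quasi-likelihood F-test, adjusted p under 0.05), against 2.72% of all gene models tested. The scaffold was chosen for this number of calls, so the count is a description and supports nothing. At an unadjusted p under 0.05 were 8 of the 37, against 12.1% of all gene models tested. The 6 were Taro_005440, Taro_005443, Taro_005444, Taro_005447, Taro_005448 and Taro_005467. Each was weakly expressed, with a mean of 0.511 to 7.89 CPM and no library above 19.1 CPM. The 31 gene models that were tested and not called had means of 0.453 to 791 CPM, with a median of 20.9 CPM, so the ranges overlapped. Of those 31, 28 had an adjusted p of 0.5 or more. Taro_005433, the first gene model of the scaffold, had the lowest adjusted p of the 31 (0.087) and is named after its values were seen. It had 14.1, 28.3 and 19.8 CPM in Sam-07, 12.5, 13.8 and 12.8 CPM in Palau 10, and 28.3, 36.3 and 31.3 CPM in Niue, and it was called without Sam-07 replicate 2 (adjusted p = 0.038).

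The calls were not spread along the scaffold. From Taro_005440 to Taro_005448, over 97.2 kb (111959 to 209158), 5 of 7 tested gene models were called, against 1 of 30 on the rest of the scaffold. These limits were set after the values were seen. All 5 had their highest mean in Niue. Among the 7 tested gene models there, 6 had their highest mean in Niue and 1 in Sam-07, while over the other 30 the highest mean was in Sam-07 for 14, in Palau 10 for 7 and in Niue for 9. Each of the 9 members of this stretch is described next, in order.

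Taro_005440 (111959 to 116338, plus strand, 2 exons) was seen in a single cultivar. It had no fragment in Sam-07 and none in Palau 10, and 1.42, 1.46 and 1.71 CPM in Niue, from 22, 9 and 8 fragments in replicates 2, 3 and 4. With the limit of 3 fragments taken for a cultivar at 0, the Niue mean was 19.9 times the limit in Sam-07 and 23.5 times that in Palau 10. These ratios leave out the counting error of the Niue mean. The difference was called between Palau 10 and Niue (edgeR adjusted p = 0.036) and missed the threshold between Sam-07 and Niue (adjusted p = 0.055), although the counts in Sam-07 and Palau 10 were the same, 0 in every library.

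Taro_005441 (121328 to 128749, plus strand, 6 exons), the next gene model, ran the other way and varied within cultivars. It had 8.03, 0 and 5.58 CPM in Sam-07 replicates 1, 2 and 3, and 0.747, 0 and 4.84 CPM in Palau 10 replicates 1, 2 and 3. Niue replicates 2, 3 and 4 had 0.0646, 0 and 0.214 CPM, which is 1, 0 and 1 fragments. The 3 high libraries were thus Sam-07 replicates 1 and 3 and Palau 10 replicate 3, and Sam-07 replicate 2, the deepest library, had no fragment. The gene model was not called (edgeR adjusted p = 0.52). In a fit without Palau 10 replicate 3 and Sam-07 replicate 2 it was called (adjusted p = 0.028).

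Taro_005442, Taro_005443 and Taro_005444 follow on the minus strand. Taro_005442 (138088 to 139747, 5 exons) had 1.54, 1.17 and 0.253 CPM in Sam-07, 0.685, 0.868 and 1.06 CPM in Palau 10, and 1.42, 2.11 and 2.78 CPM in Niue, and it was not called (edgeR adjusted p = 0.56). Sam-07 and Niue overlapped, while all 3 Niue libraries lay above all 3 of Palau 10. Taro_005443 (139868 to 142354, 1 exon) starts 120 bp after the end of Taro_005442. It had 1.85, 2.29 and 1.52 CPM in Sam-07, 5.36, 3.81 and 10.2 CPM in Palau 10, and 8.08, 9.41 and 8.99 CPM in Niue. Sam-07 was the lowest with no overlap, and Palau 10 replicate 3 lay above every Niue library while the other Palau 10 libraries lay below them. The log2 fold change of Taro_005443 was -2.20 (SE 0.40) for Sam-07 minus Niue (edgeR adjusted p = 0.036) and -1.75 (SE 0.39) for Sam-07 minus Palau 10 (adjusted p = 0.073).

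Taro_005444 (145512 to 147023, 1 exon) showed the same order of cultivars more sharply. It had 0.206, 0.468 and 0.253 CPM in Sam-07, from 2, 10 and 2 fragments, 2.55, 3.94 and 1.79 CPM in Palau 10, and 3.55, 5.52 and 6.21 CPM in Niue. All Sam-07 libraries were below all others, and Palau 10 replicate 2 lay above Niue replicate 2, so that these 2 cultivars overlapped. It was called in both comparisons with Sam-07, at a log2 fold change of -3.90 (SE 0.50) for Sam-07 minus Niue (edgeR adjusted p = 0.0084) and -3.03 (SE 0.49) for Sam-07 minus Palau 10 (adjusted p = 0.018).

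Taro_005445 and Taro_005446 were too weak to be tested. Taro_005445 (153410 to 154212, plus strand, 2 exons) had no fragment in Sam-07. It had 0, 4 and 9 fragments in Palau 10 replicates 1, 2 and 3, and 4, 5 and 2 fragments in Niue replicates 2, 3 and 4, and Taro_005446 had none in any library. Taro_005445 averaged 0.288 ± 0.299 CPM in Palau 10 and 0.499 ± 0.283 CPM in Niue (SD, n = 3 each).

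Taro_005447 and Taro_005448, both on the minus strand and 8240 bp apart, closed the stretch. Taro_005447 (195858 to 196691, 2 exons) had no fragment in Sam-07, 2, 0 and 1 fragments in Palau 10, and 4.20, 3.25 and 1.93 CPM in Niue, from 65, 20 and 9 fragments. Its mean in Niue was 40.6 times the upper limit in Sam-07, a ratio that leaves out the counting error of the Niue mean. The pooled level in Niue was 54.9 times that in Palau 10 (95% counting interval 18.2 to 271), and the differences from Niue were called for Sam-07 (edgeR adjusted p = 0.017) and for Palau 10 (adjusted p = 0.022).

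Taro_005448 (204932 to 209158, 9 exons) had 1.54, 5.66 and 2.66 CPM in Sam-07, 4.42, 4.01 and 3.18 CPM in Palau 10, and 11.3, 19.1 and 19.1 CPM in Niue. All Niue libraries were above all others, and Sam-07 and Palau 10 overlapped. The gene model was called among the 3 cultivars (edgeR adjusted p = 0.035) but in no pair, at a log2 fold change of -2.29 (SE 0.46) for Sam-07 minus Niue (adjusted p = 0.062) and -2.08 (SE 0.46) for Palau 10 minus Niue (adjusted p = 0.068). Of the gene models that flank the stretch, Taro_005439 (99472 to 100722, 1 exon), before it, was tested and not called. It averaged 23.3 ± 1.75 CPM in Sam-07, 22.1 ± 7.80 CPM in Palau 10 and 25.2 ± 2.62 CPM in Niue (SD, n = 3 each). Taro_005449, after the stretch, had 3 fragments in all, each in Palau 10 replicate 2, and was too weak to be tested.

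**Figure D2:**
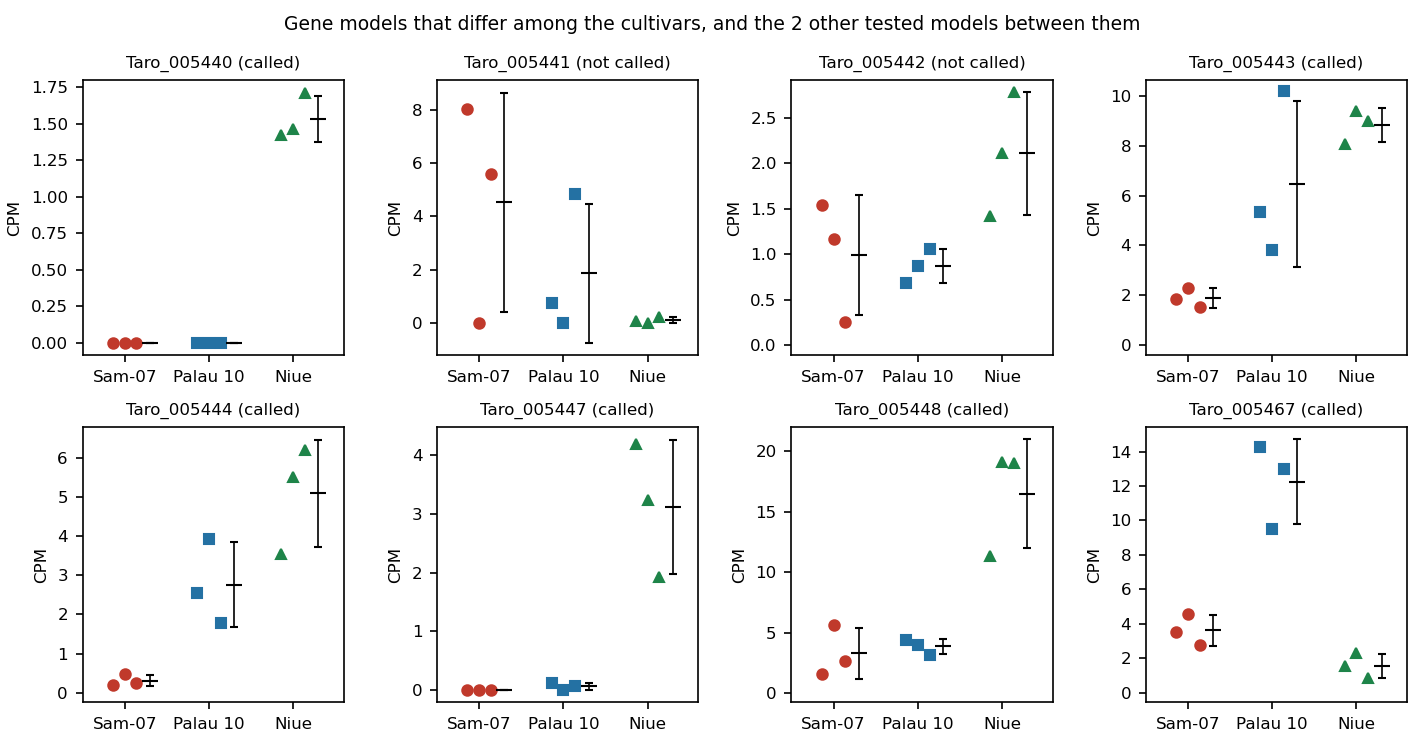
CPM of the 6 called gene models and of Taro_005441 and Taro_005442, 1 point per library, with the mean and SD of the 3 libraries of a cultivar in black beside them. The mean is highest in Niue for the 5 called gene models from Taro_005440 to Taro_005448 and in Palau 10 for Taro_005467. In Taro_005443 a Palau 10 library is the highest point. Taro_005441 reaches 8.03 CPM in Sam-07 and 0 in another library of that cultivar.

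The sixth called gene model lay far from the others and had another order of cultivars. Taro_005467 (500413 to 507493, minus strand, 21 exons, the most of any member) had 3.498, 4.58 and 2.79 CPM in Sam-07, 14.3, 9.48 and 13.0 CPM in Palau 10, and 1.55, 2.27 and 0.856 CPM in Niue. The 3 cultivars did not overlap. The log2 fold change was 2.95 (SE 0.39) for Palau 10 minus Niue (edgeR adjusted p = 0.0065), -1.74 (SE 0.36) for Sam-07 minus Palau 10 (adjusted p = 0.051) and 1.203 (SE 0.38) for Sam-07 minus Niue (adjusted p = 0.29). The gene models on either side were not called. Taro_005466 averaged 70.6, 77.0 and 70.8 CPM in Sam-07, Palau 10 and Niue, and Taro_005468 (520405 to 527998, minus strand, 7 exons) averaged 1.97 ± 0.749 CPM in Sam-07, 1.54 ± 1.08 CPM in Palau 10 and 0.883 ± 0.211 CPM in Niue (SD, n = 3 each).

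By pair of cultivars, the scaffold held 1 to 3 calls among its 37 tested gene models, too few to compare shares closely with those over all gene models tested. As the scaffold was chosen for its calls, these counts are a description and support nothing. Sam-07 minus Palau 10 gave 1 call of 37, Taro_005444, lower in Sam-07, against 1.73% of all gene models called in that comparison, 0.848% higher and 0.885% lower. Sam-07 minus Niue gave 3 calls, Taro_005443, Taro_005444 and Taro_005447, all lower in Sam-07, against 1.22% called, 0.461% higher and 0.758% lower. Palau 10 minus Niue also gave 3 calls, against 1.81% called. Of these, Taro_005467 was higher in Palau 10 (0.625% of all gene models were called higher), and Taro_005440 and Taro_005447 were lower (1.18% were called lower). The comparisons with Niue share its 3 libraries. The median size of the log2 fold change over the 37 was 0.27 for Sam-07 minus Palau 10, 0.30 for Sam-07 minus Niue and 0.57 for Palau 10 minus Niue, against 0.30, 0.28 and 0.33 over all gene models tested.

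**Figure D3:**
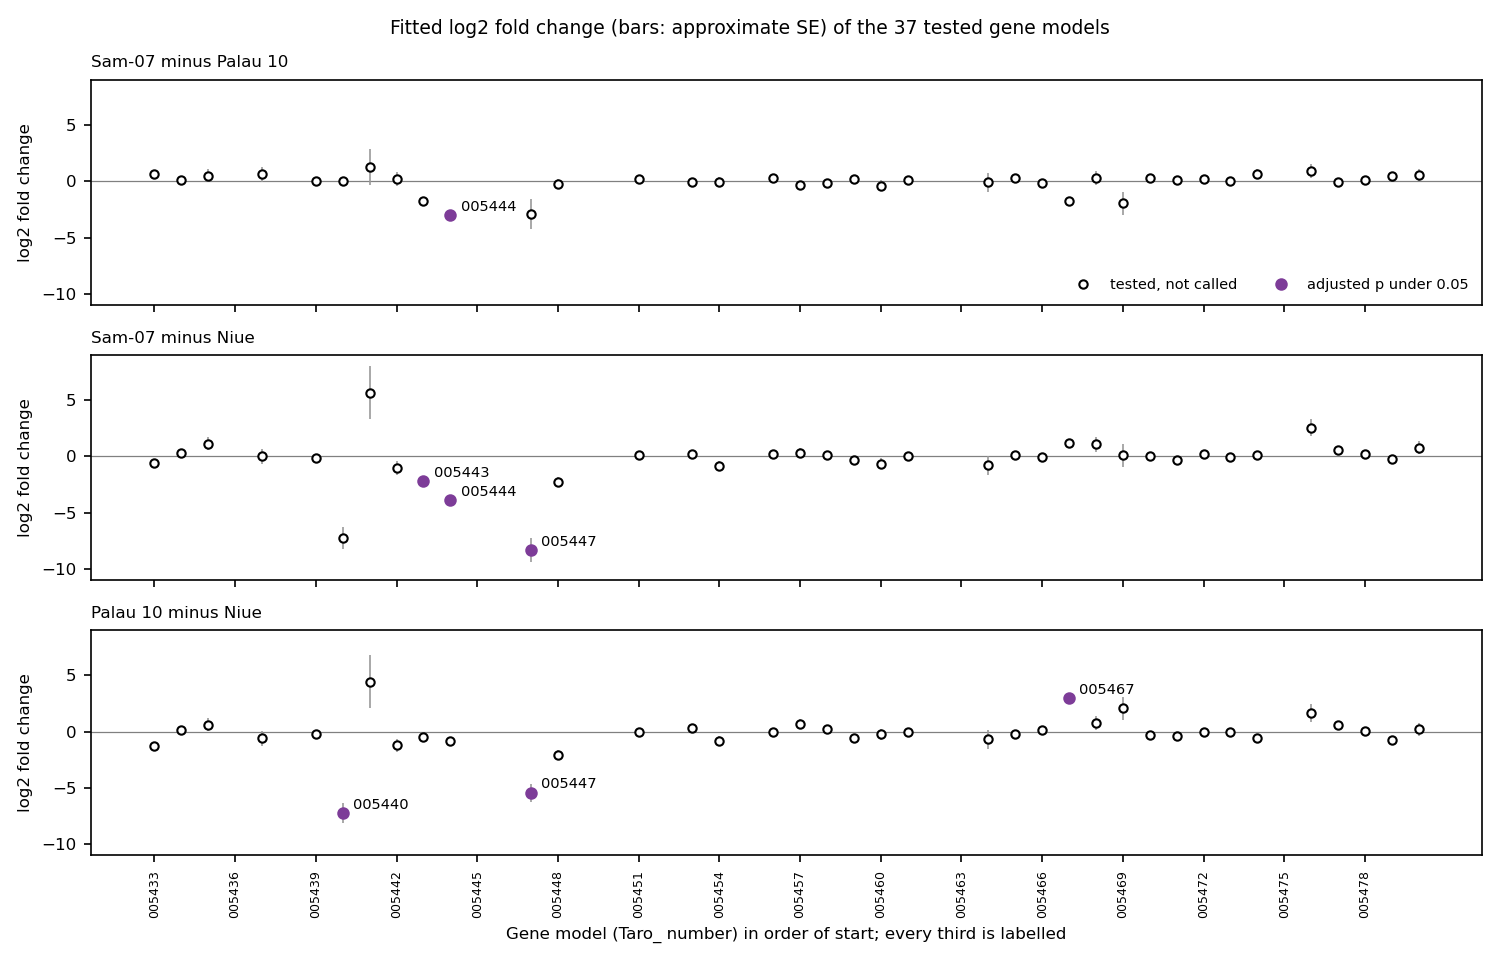
Fitted log2 fold change of the 37 tested gene models in scaffold order for the 3 pairwise comparisons, with approximate SE as bars; filled points have an adjusted p under 0.05. The calls sit at Taro_005440, Taro_005443, Taro_005444, Taro_005447 and Taro_005467, and the fold changes of gene models with no fragment in a cultivar (Taro_005440 and Taro_005447) are set by the fit and are no measure of the fold.

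The calls depended on single libraries to different degrees. Of the 9 fits that each left out 1 library, Taro_005467 was called among the cultivars in all 9 (edgeR adjusted p 0.013 to 0.039). Taro_005444 was called in 8 and lost without Sam-07 replicate 3 (adjusted p = 0.05002), and Taro_005447 in 8 and lost without Niue replicate 2 (adjusted p = 0.054). Taro_005440 was called in 4, and lost without any of the Niue libraries (adjusted p 0.13 to 0.14) and without Palau 10 replicate 1 or 2 (0.052 each). Taro_005443 was called in 2, those without Palau 10 replicate 2 or 3, and had an adjusted p of up to 0.18 in the others. Taro_005448 was called in 2, those without Sam-07 replicate 1 or 2, and had an adjusted p of up to 0.16 in the others. Each of the 6 was called without Palau 10 replicate 3 and Sam-07 replicate 2 together (adjusted p 0.0094 to 0.023), along with Taro_005433 and Taro_005441, in a fit that called 7.68% of all gene models, against 2.72% with all libraries.

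In the pairwise comparisons, calls were lost more often. Taro_005467 for Palau 10 minus Niue and Taro_005444 for Sam-07 minus Niue were called in each of the 9 fits. Taro_005444 for Sam-07 minus Palau 10 was not called without Sam-07 replicate 1 or 3 or without Palau 10 replicate 1 or 2. Taro_005447 was called in neither comparison with Niue when a Niue library was left out, nor against Palau 10 or Sam-07 when a library of that cultivar was left out. Taro_005440 for Palau 10 minus Niue was called only without Sam-07 replicate 2 or 3, and Taro_005443 for Sam-07 minus Niue only without Palau 10 replicate 2 or 3.

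The next question was whether neighbours differed together. The 47 neighbouring pairs lay 120 to 76719 bp apart (median 6741 bp), apart from 2 pairs that overlap, and 25 were on the same strand, 11 divergent and 11 convergent. In 28 pairs both members were tested, and in 2 of these both were called among the cultivars, Taro_005443 with Taro_005444 and Taro_005447 with Taro_005448. That is 7.14% of the pairs, against 0.416% of 8895 such pairs on the other scaffolds, a description that rests on 2 pairs and on a scaffold chosen for its calls. Among pairs with at least 1 member called, both were called in 28.6% on the scaffold (2 pairs, beside 5 with 1 member called). On the other scaffolds it was 10.5%. By pair of cultivars, this share was 0% for Palau 10 minus Niue (7.36% elsewhere) and 0% for Sam-07 minus Palau 10 (6.15%). For Sam-07 minus Niue it was 33.3% (8.38% elsewhere), from 1 pair. The 2 pairs called among the cultivars were each on the same strand, at 3157 and 8240 bp, and all 4 members had their highest mean in Niue. In a pairwise comparison 1 pair was called together, Taro_005443 and Taro_005444, both lower in Sam-07 than in Niue. The pairs did not have the same pattern throughout: Palau 10 lay between Sam-07 and Niue in Taro_005443 and Taro_005444, and close to Sam-07 in Taro_005447 and Taro_005448. Neither pair kept both calls without Niue replicate 2, 3 or 4, without Palau 10 replicate 1, without Sam-07 replicate 3 or with library size only as the scaling. A single pair kept them without Palau 10 replicate 2 or 3 or Sam-07 replicate 1 or 2.

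Over all tested pairs, called or not, the share with a common direction did not set the scaffold apart. It lay below that on other scaffolds in both comparisons with Sam-07 and above it for Palau 10 minus Niue. The differences were small for 28 pairs that share members, and were not tested. The fold changes of both members had the same sign in 14 of 28 pairs for Sam-07 minus Palau 10 (50.0%, against 55.3% on other scaffolds). They had it in 13 of 28 for Sam-07 minus Niue (46.4%, against 54.3%) and in 18 of 28 for Palau 10 minus Niue (64.3%, against 55.4%).

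The last question was whether neighbours varied together between libraries of the same cultivar. For each pair with means of at least 1 CPM, the cultivar mean of log2(CPM + 1) was subtracted from each library and Pearson's r was taken over the 9 libraries, which all pairs share. The subtraction leaves fewer than 9 free values, and fewer still with a library left out. A large r of either sign, or a change of sign, can therefore arise by chance in a single pair. The median r over 24 neighbouring pairs was 0.215 (quartiles -0.266 and 0.352), against 0.0872 over 537 other pairs of the scaffold and 0.151 over 7947 neighbouring pairs of other scaffolds. An r above 0.5 was seen in 3 of the 24 pairs (12.5%), against 24.95% of the other pairs of the scaffold and 29.7% of neighbouring pairs elsewhere. Palau 10 replicate 3 decided the sign. Without this library the median over the 24 pairs was -0.167, against 0.0749 over the other pairs of the scaffold and 0.131 over neighbouring pairs elsewhere. Without Palau 10 replicate 2 it was 0.0409, and without Sam-07 replicate 2 it was 0.0574.

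**Figure D4:**
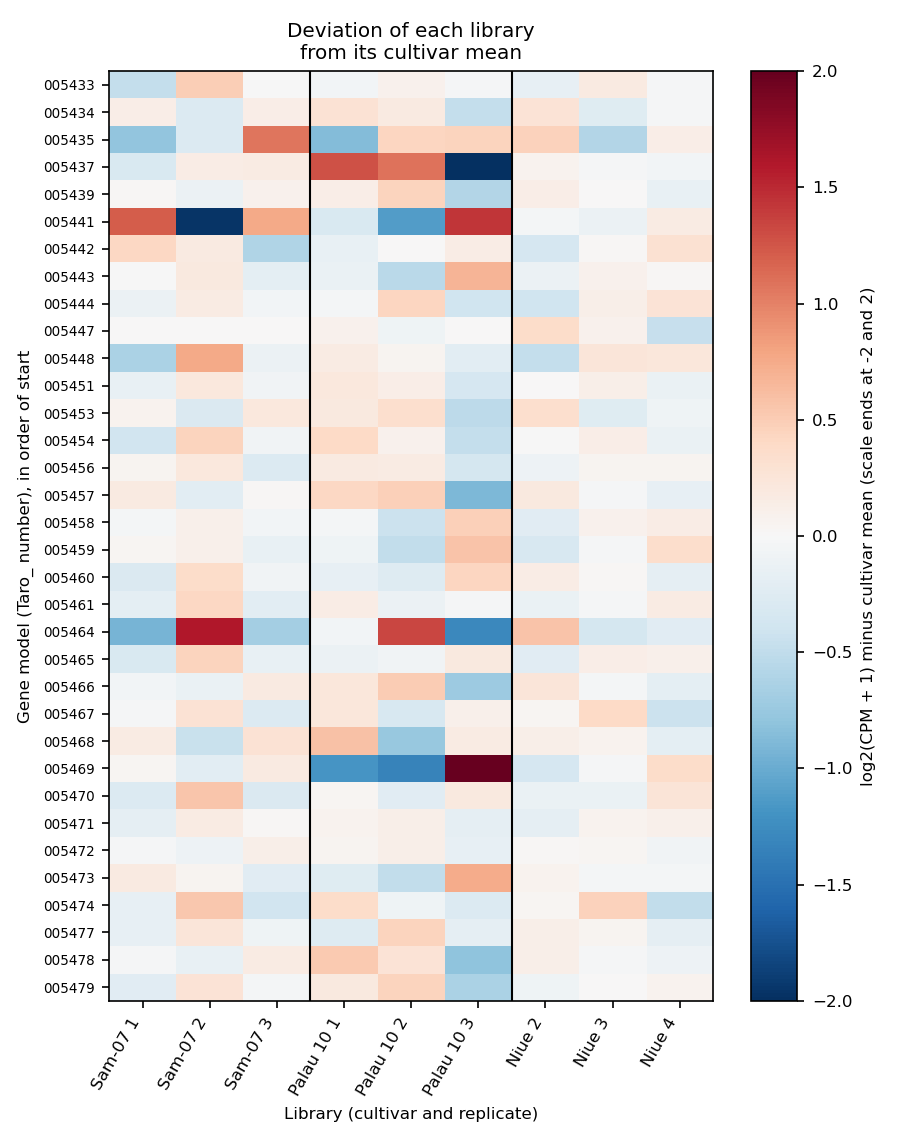
Deviation of each library from the mean of its cultivar on the log2(CPM + 1) scale for the 34 gene models that average 1 CPM or more, in scaffold order from top to bottom and with libraries by cultivar from left to right. Red is above and blue below the cultivar mean, with colours saturating at -2 and 2; the strongest are Taro_005469 (2.51) and Taro_005437 (-2.36) in Palau 10 replicate 3 and Taro_005441 (-1.96) in Sam-07 replicate 2.

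The pair that varied together most was Taro_005458 and Taro_005459, which are divergent, with 6730 bp between them. Taro_005458 (285140 to 297653, minus strand, 6 exons) had 25.3, 28.0 and 24.97 CPM in Sam-07, 26.5, 19.9 and 38.0 CPM in Palau 10, and 20.6, 25.8 and 27.2 CPM in Niue. Taro_005459 (304384 to 316373, plus strand, 5 exons) had 10.4, 10.9 and 8.998 CPM in Sam-07, 7.53, 5.48 and 12.5 CPM in Palau 10, and 9.56, 12.0 and 15.8 CPM in Niue. Both were highest in Palau 10 replicate 3 and lowest in replicate 2 within that cultivar, and highest in Niue replicate 4 and lowest in replicate 2 within Niue. Their r was 0.96 (Spearman's rho 0.95) and 0.91 without Palau 10 replicate 3, the highest of the 24 pairs. As 24 pairs were ranked, the highest of them is high in part by that choice.

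The next 2 pairs rested on a single library. Taro_005478 and Taro_005479 had an r of 0.74 (rho 0.35) with all libraries and -0.68 without Palau 10 replicate 3, where both had their lowest level. Taro_005456 and Taro_005457 had an r of 0.61 (rho 0.33) and of -0.51 without that library. The opposite relation was as strong. Taro_005457 and Taro_005458, on the same strand and 1955 bp apart, had an r of -0.90 (rho -0.87), and -0.72 without Palau 10 replicate 3. Taro_005472 and Taro_005473 had -0.84 (rho -0.77), and -0.60 without it. Taro_005443 and Taro_005444, which were called together, had an r of -0.52 (rho -0.17) within cultivars, and 0.04 without it.

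**Figure D5:**
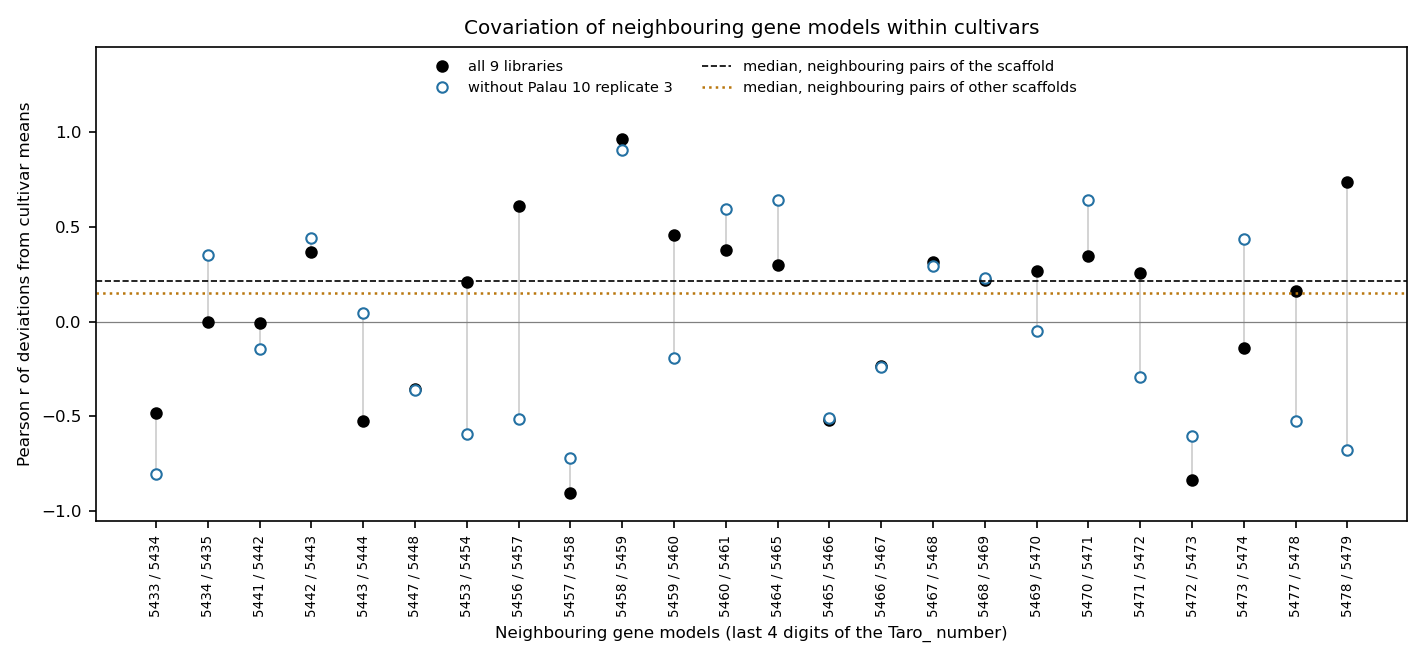
Pearson r of the deviations from cultivar means for the 24 neighbouring pairs, in scaffold order, with all 9 libraries (filled) and without Palau 10 replicate 3 (open). The dashed line is the median of the 24 pairs, 0.215, and the dotted line that of neighbouring pairs on other scaffolds, 0.151; pairs next to each other on the axis range from -0.90 to 0.96.

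Orientation gave no uniform picture either. The median r was 0.35 over 5 divergent pairs (-0.000915 to 0.96), 0.27 over 7 convergent pairs (-0.48 to 0.61) and -0.04 over 12 pairs on the same strand (-0.90 to 0.38). Without Palau 10 replicate 3 the convergent median was -0.14, so its sign rested on that library. The divergent median was then again 0.35, and the same-strand median was again negative. The 2 pairs that overlap are on opposite strands. Taro_005452 (235106 to 235761) lies within Taro_005451 (229668 to 243409) and shares no exon base with it, and it stayed under 1 CPM in every library, while Taro_005451 had 14.2 CPM or more in all. Taro_005470 and Taro_005471 share 339 exon bases, and without strand a fragment on these bases cannot be assigned to one of them. Their r was 0.35.

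Single members moved far in 1 or a few libraries with no call between cultivars, and the 2 described here were chosen after their values were seen. Taro_005469 (535653 to 552985, plus strand, 8 exons) had 5.14, 4.16 and 5.83 CPM in Sam-07, 3.18, 2.74 and 52.9 CPM in Palau 10, and 3.43, 4.54 and 6.21 CPM in Niue. Palau 10 replicate 3 was the highest of all, the other 2 Palau 10 libraries lay below every library of Sam-07 and Niue, and Sam-07 and Niue overlapped (edgeR adjusted p = 0.52, and 0.41 without Palau 10 replicate 3). Taro_005464 (445498 to 447312, plus strand, 1 exon) had 7.10, 45.4 and 8.62 CPM in Sam-07 replicates 1, 2 and 3, and 15.9, 43.3 and 6.16 CPM in Palau 10 replicates 1, 2 and 3. It had 50.4, 26.1 and 28.5 CPM in Niue replicates 2, 3 and 4, so that the library numbered 2 was the highest in each cultivar (adjusted p = 0.86). Its adjusted p was 0.34 without Sam-07 replicate 2, 0.78 without Palau 10 replicate 3 and 0.079 without both. The labels do not say what the replicate numbers mark.

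The other stretches of the scaffold held 1 call. Of 7 gene models from Taro_005433 to Taro_005439, 5 were expressed in all 9 libraries, with means of 21.0 to 791 CPM. None of the 5 tested there was called. Of 15 from Taro_005449 to Taro_005463, 8 were expressed in all libraries, with means of 2.55 to 117 CPM. None of the 9 tested there was called. Of 17 from Taro_005464 to Taro_005480, 12 were expressed in all libraries, with means of 6.43 to 94.5 CPM. There, 1 of the 16 tested was called. The member with the smallest fold between its highest and lowest library was Taro_005472 (590373 to 600467, plus strand, 5 exons), at 30.0 ± 2.31 CPM in Sam-07, 26.0 ± 2.63 CPM in Palau 10 and 26.4 ± 1.197 CPM in Niue (SD, n = 3 each).

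Across the 27 gene models expressed in all libraries, the highest library was 1.41 to 19.3 times the lowest, with a median of 2.39, against a median of 2.37 over all 14916 gene models expressed in all libraries. The lowest library was Palau 10 replicate 3 for 14 of the 27 (51.9%), against 29.9% of the 14916. The highest library was Sam-07 replicate 2 for 6 of the 27 (22.2%, against 17.9%) and Palau 10 replicate 3 for 4 (14.8%, against 21.4%).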

How the data were processed

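Per the labels' protocols, the CTAB method gave total RNA from the 2 youngest leaves (4 g), which went into stranded TruSeq libraries. The deposited counts are raw fragments per gene model, which the authors made with featureCounts 1.4.6-p4 over exons, per the file headers. That command set no strand, so RNA from the opposite strand counts too, and it set no option to count fragments that map to several places or overlap several gene models. The submitters' processing notes name bcl2fastq 1.8.4, Trimmomatic 0.33 and STAR (given there as 3.5.0a).

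All 57034 gene models entered 1 fit over 9 libraries in R 4.3.3 with edgeR 4.0.16 (TMM factors, filterByExpr with a minimum count of 10 and total of 15, glmQLFit and glmQLFTest, two-sided, cultivar as the only term). Benjamini-Hochberg adjusted p-values run over the 18865 tested gene models. Approximate standard errors (SE) come from the log2 fold change and its F statistic. The code was tested on simulated data. The scaffold was chosen for its number of calls in an earlier analysis of these data, and its lists with those results known. Named are all called members, their neighbours, the 5 most abundant, those at 1 CPM or more in all libraries of one cultivar and without a fragment in another, and the 3 pairs with the highest and the lowest r. Members named beyond this rule are the silent and the overlapping ones and, chosen after their values were seen, Taro_005433, Taro_005464 and Taro_005469. A chi-square comparison found no pair of replicates as close as sampling noise alone would give. Alternatives were other scaling, filters, DESeq2 1.42.0, robust estimation, a replicate block, only the 6 libraries of a pair, other CPM limits and pseudocounts, Spearman's rho, and leaving out each library. Leaving out Palau 10 replicate 3 with Sam-07 replicate 2 was added after seeing the data.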

Additional observations from a re-analysis of the deposited data

How the results depend on the processing

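Leaving out 1 library gave 2 to 6 gene models called among the 3 cultivars (6 with all), 0 to 1 for Sam-07 minus Palau 10 (1), 1 to 4 for Sam-07 minus Niue (3) and 1 to 5 for Palau 10 minus Niue (3). Each of these 4 counts was 0 with at least 10 CPM in 3 libraries, a filter that kept 20 members and only Taro_005448 of the 6, and 0 in a fit that took replicate numbers as a block. Of all gene models, the filter left 1.1% called among the 3 cultivars and 0.569% to 0.776% in the pairwise comparisons, and the block left 0.133% called among the 3 cultivars, 0.371% for Sam-07 minus Palau 10, 0.0477% for Sam-07 minus Niue and 0.0053% for Palau 10 minus Niue. The numbers are not shown to pair libraries: between libraries of the same number, deviations from cultivar means correlated at 0.0755, 0.454 and 0.248 for Sam-07 with Palau 10, at 0.0376 and -0.405 for Sam-07 with Niue, and at 0.296 and -0.147 for Palau 10 with Niue. DESeq2 called 7 among the 3 cultivars (6.01% of all gene models, against 2.72% with edgeR), 3 for Sam-07 minus Palau 10 (3.92% against 1.73%), 5 for Sam-07 minus Niue (3.09% against 1.22%) and 5 for Palau 10 minus Niue (3.8% against 1.81%). Only the 6 libraries of a pair gave 0 for Sam-07 minus Palau 10 and 5 for Palau 10 minus Niue, and RLE factors gave 2 for Sam-07 minus Palau 10. Without both libraries that stand apart, 6 were called for Sam-07 minus Niue (5.96% of all gene models) and 5 for Palau 10 minus Niue (3.44%), so calls also increased over all gene models. The median r of neighbours was -0.167 to 0.264 when 1 library was left out and -0.131 without both. It was 0.125 with Spearman's rho, 0.132 over 34 pairs with no limit on the mean, and 0.299 with library size only, where it was 0.284 over the other pairs of the scaffold and 0.284 over neighbours elsewhere. The cause of these changes was not tested. The 7 pairwise fold changes that were called kept their sign under each alternative run for them. Expressed in all libraries were 29 members at a limit of 0.5 CPM and 20 at 5 CPM, against 27 at 1 CPM. Depth limits the weak members most: Taro_005440 rests on 39 fragments and Taro_005447 on 97.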
